A study of Homo sapiens with 13 samples.

Results

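The transcripts described here are those of the proteasome: the genes whose symbols begin with PSM followed by one of the letters A to G and a number. They comprise the core particle (PSMA and PSMB genes), the base and lid of the regulatory particle (PSMC and PSMD genes), alternative activators (PSME), the regulator PSMF1 and the assembly chaperones (PSMG, PSMD5, PSMD9 and PSMD10). Of 60591 genes in the table of counts, 48 matched, and 43 of these passed the filter on low counts that left 19514 genes to test. The cells were labelled TE11, a line from human esophageal squamous cell carcinoma, and all were treated for 48 h. The 4 groups were 10 µM chloroquine with 25 µM 5-fluorouracil (combination, n = 3), 25 µM 5-fluorouracil alone (5-FU, n = 3), 10 µM chloroquine alone (n = 3) and the vehicle, 0.1% DMSO (n = 4). Chloroquine enters lysosomes as a weak base and stops the late steps of autophagy there, and 5-FU is a pyrimidine analogue used in chemotherapy. Whether replicates were separate cultures is not said in the labels, and the spread that p-values rest on may therefore be technical.

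The proteasome is the main protease of the cytosol and nucleus and degrades proteins tagged with ubiquitin. Its core is a barrel of alpha and beta rings with the active sites of PSMB5, PSMB6 and PSMB7 facing inward, and the base and lid bind, unfold and deubiquitinate substrates before they enter. Interferon induces PSMB8, PSMB9 and PSMB10, which replace the constitutive active subunits and favour peptides for MHC class I. Proteasome genes are known to be controlled together: when proteasome activity falls, the transcription factor NFE2L1 is processed and raises most of them through antioxidant response elements in their promoters. The proteasome and autophagy are the cell's main routes of protein breakdown.

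Total counts were between 17834539 and 23679833 per library. In 5 libraries (combination 2, 5-FU 2, chloroquine 1 and 2, vehicle 4) 153 to 741 counts of the collagen gene COL1A2 were found, against 1 to 7 counts in the other 8. Counts summed over 6 fibroblast markers were 676 to 2493 in those 5 and 203 to 617 in the other 8, and over 7 leukocyte markers 29 to 400 and 7 to 28. By group, the fibroblast sum ran from 297 to 676 in the combination, from 615 to 883 in 5-FU, from 209 to 2060 in chloroquine and from 203 to 2493 in vehicle. The leukocyte sum ran from 26 to 29 in the combination, from 18 to 287 in 5-FU, from 12 to 342 in chloroquine and from 7 to 400 in vehicle. Combination 2 was set apart by COL1A2, with a fibroblast sum of 676 against 306 and 297 in combination 1 and 3. Its leukocyte sum was 29, against 26 and 28. Of 9 markers of squamous epithelium, 7 (KRT5, KRT6A, TP63, DSG3, KRT13, KRT4 and IVL) had at most 10 counts in every library, with KRT4 at 0. The squamous sum ran from 64 to 81 counts in the combination, from 60 to 77 in 5-FU, from 18 to 35 in chloroquine and from 8 to 46 in vehicle. The general epithelial markers KRT8, KRT18, EPCAM and CDH1 were detected, with a sum of 1788 to 1842 counts in the combination, 1486 to 1743 in 5-FU, 875 to 1168 in chloroquine and 907 to 1084 in vehicle. Both epithelial sums were thus higher, without overlap, in the 2 groups with 5-FU, and the part of this shift in the results below was not tested. Most squamous counts were of SFN, with 63 to 74 in the combination, 53 to 72 in 5-FU and 7 to 29 in vehicle libraries. In the general sum KRT8, KRT18 and EPCAM had more counts in those 2 groups than in vehicle. CDH1 did not, with 37 to 45 counts in the combination, 39 to 47 in 5-FU and 43 to 57 in vehicle. For each comparison, the members whose call was lost in the 8 libraries with few COL1A2 counts are named.

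The row of PSMC1 cannot be read on its own. For PSMA6 and PSME2, 54.5% and 37.7% of the joint counts of member and pseudogene rows also lay on pseudogenes. Pseudogene rows were matched by name only. Copies under clone names were left out, such as AC046176.1, 98.3% identical to PSMC6 over 96.5% of its coding bases. PSMC1, an ATPase of the base, had 955 counts over the 13 libraries, and rows named as its pseudogenes held 50135, which is 98.1% of the joint counts. Nearly all lay on PSMC1P1, with 2180 to 4978 counts per library. The coding sequence of PSMC1 (1323 bases, GENCODE release 29) and the PSMC1P1 transcript align over 1320 bases with 1 difference, T885A, counted from 1 at the first coding base, with T in PSMC1 and A in PSMC1P1. The stretch from position 855 to 914 is shown because it holds the 1 base that differs in the aligned part, in capitals, beside an identical run of 884 bases.
PSMC1: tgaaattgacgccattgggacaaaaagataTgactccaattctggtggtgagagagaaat
PSMC1P1: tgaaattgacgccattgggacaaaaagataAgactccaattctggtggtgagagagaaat
Reads that do not cross that base have no letter that tells gene from copy within the 1320 aligned bases. The way the authors' counting placed them was not stated in the labels. Of the exonic bases of PSMC1, 75.8% also overlap NRDE2 on the opposite strand, a row with 578 to 911 counts per library. Whether counting used the strand was not given, and the part of this overlap in the low PSMC1 counts was not tested.

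The promoters were searched for the antioxidant response element and for CCAAT, the box bound by the factor NF-Y. RefSeq promoter windows on GRCh38.p14 were found for 42 of the 48 members (51 windows of 300 bases around a transcription start, since some genes have several starts). TGACNNNGC, the core of the antioxidant response element read on both strands, was present in 15 of the 51 windows (29.4%), against 13.3% of all 35116 windows. CCAAT, also on both strands, was present in 39.2% of member windows and 34.6% of all, and the stricter TGACTCAGC in none of the 51 and 0.561% of all. The following windows of 41 bases, all upstream of the start and written 5′ to 3′ on the strand of the gene, are shown because their genes took different courses in the data. Capitals mark the motif.
PSMD12, chr17:67366718-67366758, minus strand: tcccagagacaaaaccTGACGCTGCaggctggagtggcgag
PSMD3, chr17:39980754-39980794, plus strand: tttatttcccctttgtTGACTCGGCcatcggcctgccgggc
PSMG2, chr18:12658683-12658723, plus strand: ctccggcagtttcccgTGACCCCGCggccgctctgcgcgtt
PSME2, chr14:24146761-24146801, minus strand: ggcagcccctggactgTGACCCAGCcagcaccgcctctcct
PSMD9, chr12:121888672-121888712, plus strand: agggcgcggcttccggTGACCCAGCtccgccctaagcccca
PSMD12 and PSMD9 were higher in the combination than in vehicle, PSMD3 and PSMG2 were lower, and PSME2 was higher in 5-FU than in vehicle. A match of letters is not a bound site, and no binding was measured.

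Chloroquine alone lowered nearly the whole family by a modest amount. Of 43 tested members, 38 fell against vehicle (edgeR's quasi-likelihood test, Benjamini-Hochberg adjusted p under 0.05) and none rose, where 19.1% of all tested genes fell and 20.3% rose. The median log2 fold change of members was -0.34, against 0.023 over all genes. Falls were found in every large class: all 14 subunits of the constitutive core rings, 16 of 17 of the base and lid, 5 of 6 tested assembly chaperones and 3 of 4 activators. The exceptions were PSMC1, PSMB10, PSME2, PSMF1 and PSMG4, chosen here for not being called. PSMA3 and PSMB6 fell most, by 36.5% and 36.5%, and no member reached a log2 fold change of 1 in either direction. Summed over the 48 members, the level was 5495 ± 112.5 CPM in chloroquine and 7106.5 ± 244 CPM in vehicle libraries (CPM, counts scaled to a common library size; ± SD). In bulk RNA, fewer cells of a type and less RNA per cell cannot be told apart. In the 8 libraries with few COL1A2 counts, where chloroquine has 1 library that is assumed to vary like the others, 30 of the 38 calls were kept, and PSMA2, PSMB3, PSMD4, PSMD9, PSMD12, PSME1, PSME4 and PSMG2 were no longer called. With library size alone in place of TMM scaling, 29 were kept.

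5-FU alone divided the family. Of 43 members, 21 fell and 3 rose (PSMB10, PSME2 and PSMC3), beside 29.5% of all tested genes that fell and 30.8% that rose, with a member median of -0.18. The fall took in 5 of 14 core ring subunits, 9 of 17 of the base and lid, 3 of 6 assembly chaperones and 3 of 4 activators. This balance depends on the scaling: with library size alone the median of all genes shifted by 0.19, and 12 members were called higher and 11 lower. Of all 19514 tested genes, 8291 were called higher and 3669 lower with that scaling. Relative to that shift the members still lay below all genes, with medians of 0.0084 for members and 0.20 for all. In the 8 libraries with few COL1A2 counts, all 24 calls were kept.

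In the combination, 23 members were lower and 8 higher than in vehicle, beside 27.2% and 28.1% of all tested genes, with a member median of -0.14. The 8 were PSMA6, PSMB6, PSMC2, PSMC3, PSMD9, PSMD10, PSMD12 and PSME2. Of them, 7 had fallen with chloroquine alone, PSME2 being the exception, and 2.32% of all tested genes showed that pair of calls. Only PSMC3 and PSME2 had also risen with 5-FU alone. Of those given in every library, PSMA6, PSMB6 and PSMD10 were also called higher in 5-FU with library size alone. Their values there were 0.32 (adjusted p = 0.00139), 0.33 (adjusted p = 0.00123) and 0.20 (adjusted p = 0.00853). PSMB6 was also called in 5-FU with a term for the 5 libraries, at 0.15 (adjusted p = 0.0366), and without 5-FU 2, at 0.22 (adjusted p = 0.0261). With library size alone, which shifted the median of all genes by 0.15, 13 members were higher and 10 lower. Of all 19514 tested genes, 7422 were called higher and 3659 lower with that scaling. In the 8 libraries 26 of the 31 calls were kept, PSMD9 and PSME2 being no longer called higher and PSMB2, PSMD6 and PSMF1 no longer lower. The summed level was 6660.4 ± 177 CPM in the combination, 6238 ± 110.5 CPM in 5-FU and 7106.5 ± 244 CPM in vehicle libraries.

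**Figure D1:**
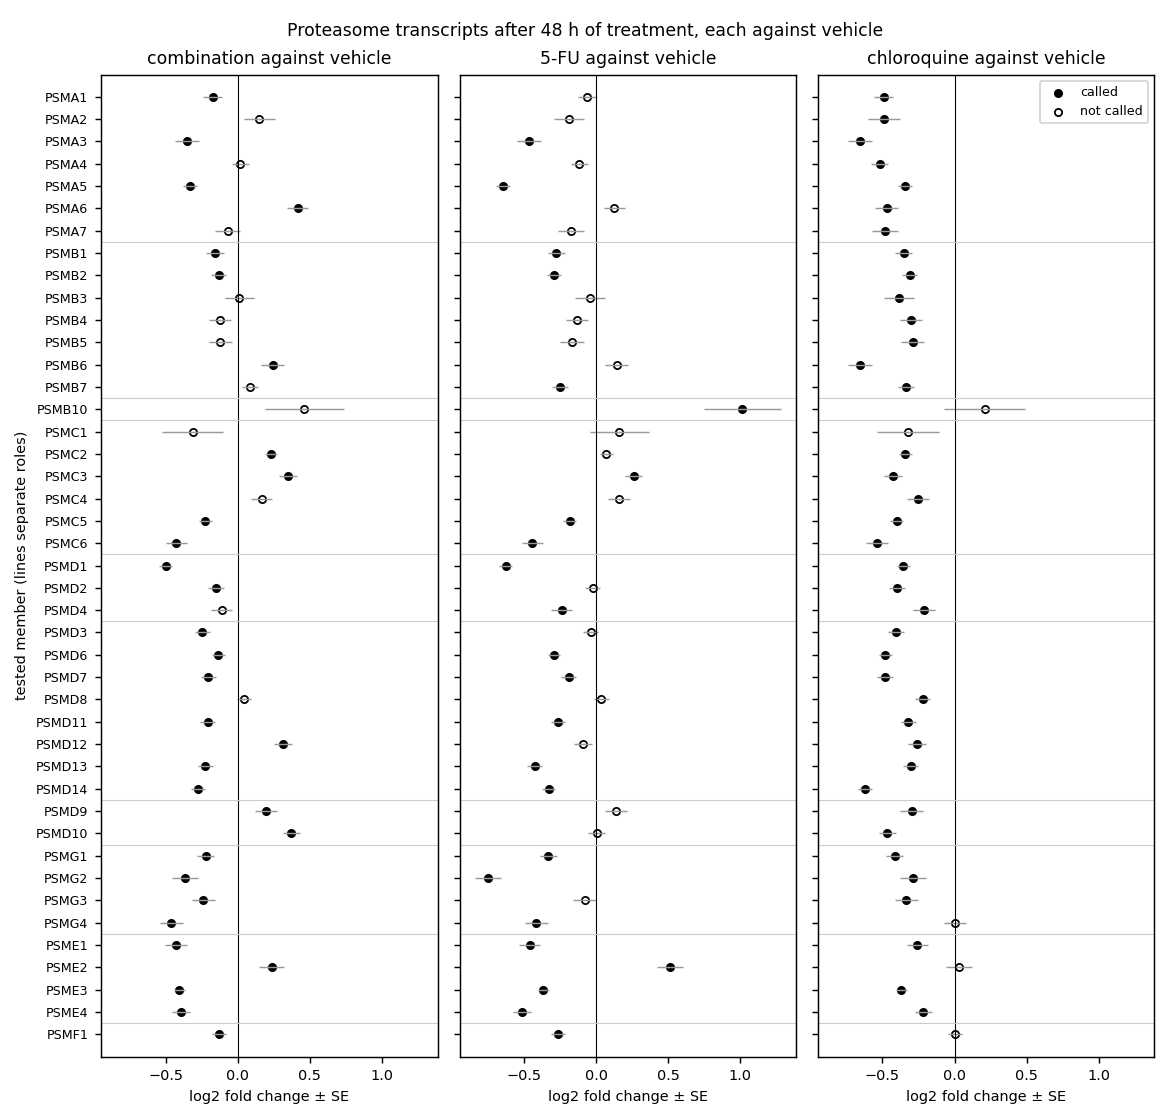
Log2 fold change (x axis, ± SE from edgeR) of each of the 43 tested members (rows, with lines between roles) in the combination, 5-FU and chloroquine, each against vehicle. Filled points passed an adjusted p under 0.05; with chloroquine 38 points lie left of 0 and are filled, and with the combination 8 filled points lie right of 0.

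The alpha ring forms the gate of the core. All 7 tested subunits fell with chloroquine, by 0.34 to 0.66 on the log2 scale, beside 19.1% of all tested genes. Of them, 6 were higher in the combination than with chloroquine alone, beside 24.8% of all tested genes. PSMA3 had 115, 110.2 and 121 CPM in combination libraries and 97.2, 111 and 112 in 5-FU. It had 84.3, 88.4 and 109 in chloroquine and 149, 156, 150.1 and 136 in vehicle libraries. Its treated libraries all lay below those of vehicle. The log2 fold change of PSMA3 was -0.35 ± 0.083 (adjusted p = 0.00221) in the combination, -0.47 ± 0.084 (adjusted p = 0.000221) in 5-FU and -0.66 ± 0.084 (adjusted p = 3.67e-05) in chloroquine. Against chloroquine the combination was higher by 0.30 ± 0.089 (adjusted p = 0.0116), a call that was lost without chloroquine replicate 1, at 0.23 (adjusted p = 0.0661), and without replicate 2, at 0.26 (adjusted p = 0.0548). In the 8 libraries it was 0.12 (adjusted p = 0.389).

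PSMA5, another alpha subunit, was lowest with 5-FU alone. It had 174, 173 and 179.7 CPM in combination libraries, 138, 138 and 147 in 5-FU, 172, 169 and 181 in chloroquine and 232, 222, 225 and 205 in vehicle libraries. The 5-FU libraries lay below all others, and the combination and chloroquine libraries overlapped. PSMA5 changed by -0.65 ± 0.050 (adjusted p = 7.35e-08) in 5-FU, -0.34 ± 0.050 (adjusted p = 9.94e-05) in chloroquine and -0.33 ± 0.050 (adjusted p = 5.9e-05) in the combination, so the combination stood above 5-FU by 0.32 ± 0.053 (adjusted p = 0.000333).

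PSMA6 took the opposite course in the combination. Its row had 22.4, 22 and 22.6 CPM in combination libraries, 20.5, 16.9 and 17.5 in 5-FU, 12.9, 12.2 and 11.1 in chloroquine and 17.1, 17.5, 16.3 and 16.1 in vehicle libraries. All combination libraries were above, and all chloroquine libraries below, every vehicle library. PSMA6 rose by 0.42 ± 0.072 (adjusted p = 0.000198) in the combination and fell in chloroquine, at -0.47 ± 0.077 (adjusted p = 0.000265), and 5-FU alone gave 0.13 ± 0.073 (adjusted p = 0.156). Rows named as its pseudogenes held 54.5% of the joint counts. With those rows added the values were 0.37 and -0.46, both still called. Of the exonic bases of PSMA6, 14.1% are shared on the same strand with AL121594.1, a row with 2 to 12 counts. That gene is 97.4% identical over 90.3% of the coding bases, so the counts of PSMA6 are uncertain.
The rise of PSMA6 over 5-FU, 0.29 ± 0.076 (adjusted p = 0.00756), was not called in the 8 libraries, at 0.25 (adjusted p = 0.0671), nor with the replicate numbers as a block in those 2 groups, at 0.28 (adjusted p = 0.0525). Among the remaining alpha subunits, PSMA1, PSMA2, PSMA4 and PSMA7, log2 fold changes ran from -0.52 to -0.48 with chloroquine, from -0.19 to -0.062 with 5-FU and from -0.17 to 0.15 with the combination. On the same strand, 24.7% of the exonic bases of PSMA1 are shared with AC018523.2 and 14.6% of those of PSMA2 with AC010132.3. These rows had 0 to 4 and 0 to 5 counts. The coding sequence of PSMA2 is identical in AC010132.3 over all 705 bases, so its counts are uncertain.

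The 3 active subunits of the beta ring differed in the size of their response. PSMB6, which cleaves after acidic residues, changed most. It had 137, 132 and 157 CPM in combination libraries, 143, 117 and 136 in 5-FU, 75, 77.5 and 75.6 in chloroquine and 129, 113, 127 and 109.7 in vehicle libraries. The chloroquine libraries lay well below all others, and the combination libraries lay above every vehicle library. PSMB6 changed by 0.24 ± 0.079 (adjusted p = 0.0171) in the combination, 0.14 ± 0.079 (adjusted p = 0.137) in 5-FU and -0.66 ± 0.082 (adjusted p = 2.73e-05) in chloroquine. Its rise in the combination rested on replicate 3, without which it was 0.16 (adjusted p = 0.124), whereas its difference between combination and chloroquine was 0.90 ± 0.086 (adjusted p = 1.12e-06).

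PSMB7, which cleaves after basic residues, had 219.8, 226 and 223 CPM in combination libraries, 170.1, 176 and 185 in 5-FU, 172, 173 and 154 in chloroquine and 228, 200.2, 209.7 and 203 in vehicle libraries. The combination libraries overlapped those of vehicle, and both single drugs lay below them. PSMB7 fell by 0.25 ± 0.056 in 5-FU (adjusted p = 0.0014) and by 0.34 ± 0.056 in chloroquine (adjusted p = 0.000311), and gave 0.086 ± 0.055 (adjusted p = 0.206) in the combination.
With library size alone the 5-FU value was -0.057 (adjusted p = 0.396). The combination was above 5-FU by 0.34 ± 0.059 (adjusted p = 0.00051) and above chloroquine by 0.42 ± 0.060 (adjusted p = 3.97e-05).

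PSMB5, which cleaves after hydrophobic residues and is the main target of proteasome inhibitors, had 158, 142 and 172 CPM in combination libraries, 165, 135 and 156 in 5-FU, 139, 137 and 143 in chloroquine and 175, 184, 172 and 152 in vehicle libraries. Only the chloroquine libraries lay below all vehicle libraries. PSMB5 gave -0.12 ± 0.081 (adjusted p = 0.226) in the combination, -0.17 ± 0.081 (adjusted p = 0.0868) in 5-FU and -0.29 ± 0.081 (adjusted p = 0.0111) in chloroquine, the last becoming -0.20 (adjusted p = 0.051) with library size alone. The inactive beta subunits PSMB1, PSMB2, PSMB3 and PSMB4 fell with chloroquine by 0.30 to 0.39, and PSMB1 and PSMB2 were also called lower in 5-FU and in the combination. In the combination the call of PSMB1 was lost without vehicle 1, vehicle 2, vehicle 3, chloroquine 1, combination 1 or combination 2, at -0.16 to -0.12 (adjusted p = 0.0519 to 0.122). That of PSMB2 was lost without vehicle 1, vehicle 2, vehicle 3, combination 1 or combination 2, at -0.15 to -0.11 (adjusted p = 0.0594 to 0.153), and was -0.13 (adjusted p = 0.0857) in the 8 libraries, where the fall of PSMB3 with chloroquine was -0.28 (adjusted p = 0.0817).

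**Figure D2:**
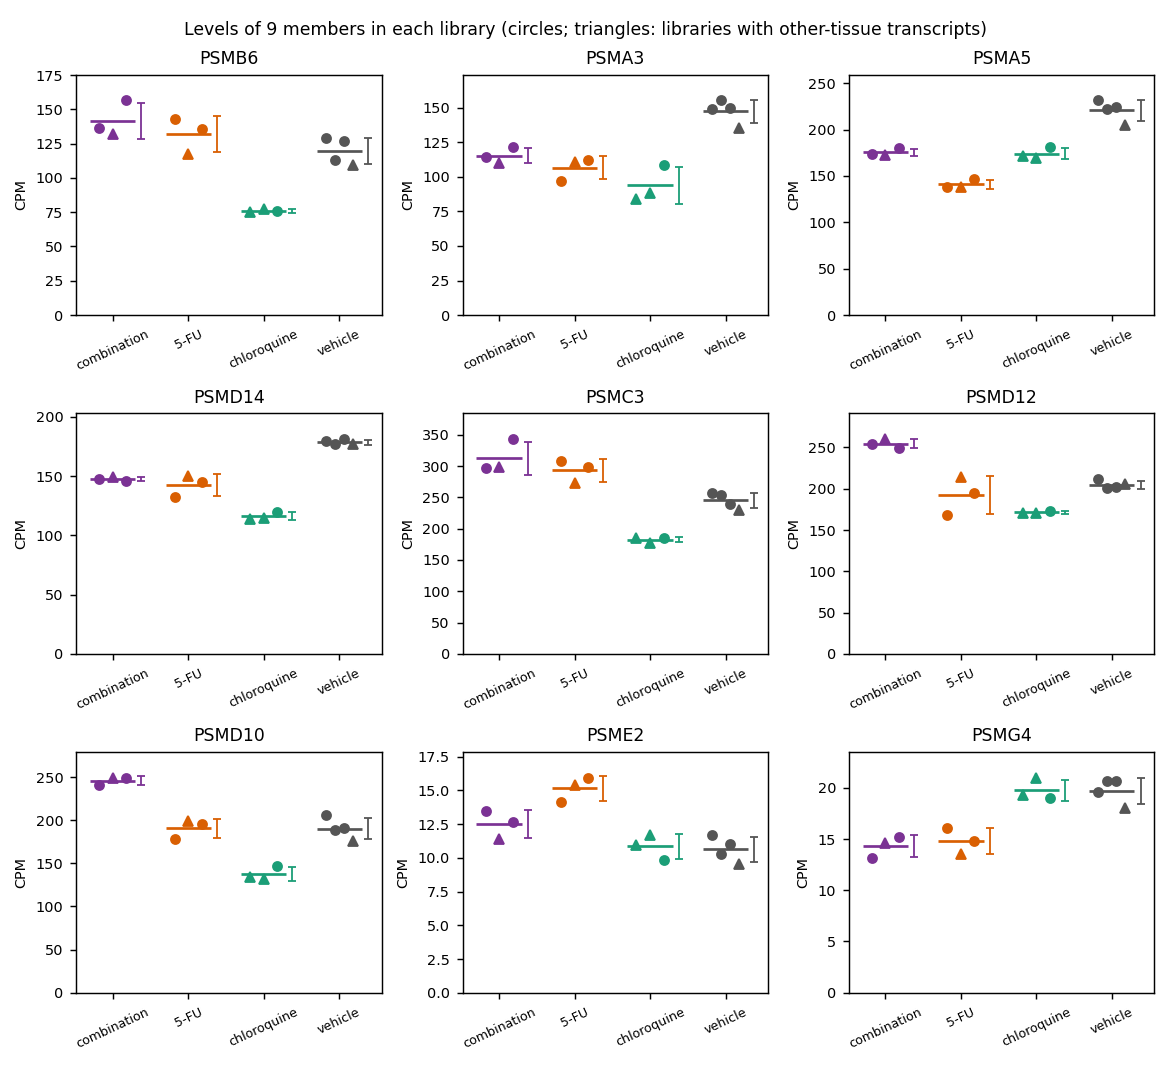
CPM (y axis, from 0) of 9 members in each library of the 4 groups (x axis), with the mean as a line and the SD as a bar beside it. Triangles mark the 5 libraries with at least 50 counts of COL1A2. PSMB6 and PSMD10 are lowest with chloroquine, PSMA5 is lowest with 5-FU, and PSMG4 is lower in both groups with 5-FU.

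The interferon-inducible subunits were nearly absent. PSMB8 had 0 to 3 counts and PSMB9 0 to 2 counts in every library of every group, and neither was tested. A count of 0 allows up to 0.12 to 0.171 CPM at these depths (3 counts; counting error only). With so few counts, genes of like pattern could not be sought for them. PSMB10 was low but tested, with 0.779, 1.39 and 1.49 CPM in combination libraries, 2.28, 1.84 and 1.28 in 5-FU, 0.826, 1.22 and 1.02 in chloroquine and 0.769, 0.856, 1.02 and 0.877 in vehicle libraries. Its 5-FU libraries lay above all vehicle libraries and the other groups overlapped. PSMB10 rose by 1.02 ± 0.27 (adjusted p = 0.00423) in 5-FU, the largest change of any tested member in the 3 comparisons with vehicle, and gave 0.46 ± 0.27 (adjusted p = 0.168) in the combination and 0.21 ± 0.28 (adjusted p = 0.596) in chloroquine. Of its exonic bases, 34.8% are shared on the same strand with AC040162.1, a row with 35 to 104 counts, so its counts are uncertain. The thymus subunit PSMB11 had 0 to 1 counts and the testis subunit PSMA8 had 0 in all 13 libraries.

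Among the base ATPases, which unfold substrates and open the core, 5 of 6 fell with chloroquine, beside 19.1% of all tested genes. PSMC3 rose both with 5-FU and in the combination. It had 297, 298 and 343 CPM in combination libraries, 309, 273 and 299 in 5-FU, 185, 177 and 186 in chloroquine and 257, 253, 239.8 and 230.4 in vehicle libraries. Both groups with 5-FU lay above all vehicle libraries and the chloroquine group lay below them. PSMC3 changed by 0.35 ± 0.061 (adjusted p = 0.000212) in the combination, 0.26 ± 0.061 (adjusted p = 0.00204) in 5-FU and -0.42 ± 0.063 (adjusted p = 0.00011) in chloroquine. PSMC6 fell in all 3, by 0.43, 0.44 and 0.54 in the combination, 5-FU and chloroquine. PSMC2 rose by 0.23 ± 0.044 in the combination, beside a change of -0.34 ± 0.045 in chloroquine, PSMC5 fell in all 3 and PSMC4 was called in chloroquine, -0.25 ± 0.077, and in neither group with 5-FU. The call of PSMC4 was lost without vehicle 3, chloroquine 2 or chloroquine 3, at -0.24 to -0.21 (adjusted p = 0.0567 to 0.0601).

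PSMC1 itself was not called in any of the 6 comparisons, with -0.32 ± 0.21 (adjusted p = 0.25) in chloroquine. Its near copy PSMC1P1 had 195, 197 and 201 CPM in combination libraries, 196, 194 and 198 in 5-FU, 119.8, 118 and 123 in chloroquine and 189, 194, 186 and 179 in vehicle libraries. The chloroquine libraries of this row lay far below the rest, and the combination and 5-FU libraries lay just above those of vehicle. PSMC1P1 changed by 0.083 ± 0.041 (adjusted p = 0.101) in the combination, 0.071 ± 0.041 (adjusted p = 0.146) in 5-FU and -0.64 ± 0.042 (adjusted p = 1.25e-07) in chloroquine. PSMC1 with its copies added gave -0.62 in chloroquine and 0.70 in the combination against chloroquine. Which of the 2 loci gave the transcripts cannot be told from these counts.

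**Figure D3:**
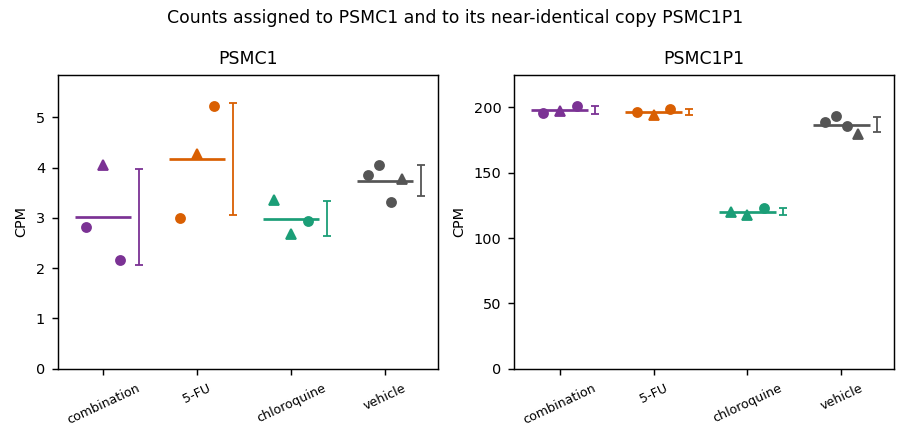
CPM (y axes, from 0, of different range) assigned to PSMC1 (left) and PSMC1P1 (right) in each library of the 4 groups (x axis), with the mean as a line and the SD as a bar. Triangles mark libraries with at least 50 counts of COL1A2. PSMC1P1 lies at 118 to 123 CPM with chloroquine and at 179 to 194 CPM with vehicle, while PSMC1 has few counts and overlapping groups.

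Of the base subunits that are not ATPases, PSMD1, a scaffold of the base, was lower in every treatment. It had 236, 227 and 243 CPM in combination libraries, 211, 218 and 218 in 5-FU, 247, 263 and 271 in chloroquine and 333, 343, 334 and 322 in vehicle libraries. The groups did not overlap, with 5-FU lowest, then the combination, chloroquine and vehicle. PSMD1 changed by -0.50 ± 0.045 (adjusted p = 3.79e-07) in the combination, -0.63 ± 0.045 (adjusted p = 3.45e-08) in 5-FU and -0.36 ± 0.045 (adjusted p = 2.87e-05) in chloroquine. The step between the combination and 5-FU, 0.13 ± 0.048 (adjusted p = 0.0464), was lost on leaving out any of 11 of the 13 libraries and was 0.11 (adjusted p = 0.307) with the replicate numbers as a block in those 2 groups and 0.16 (adjusted p = 0.0634) in the 8 libraries. The ubiquitin receptor PSMD4 fell with chloroquine, -0.21 ± 0.074, and with 5-FU, -0.24 ± 0.074, and PIPSL, whose gene carries a copy of PSMD4, had 952 to 1301 counts per library. The chloroquine value of PSMD4 was -0.12 (adjusted p = 0.372) in the 8 libraries, -0.11 (adjusted p = 0.212) with library size alone, and not called without vehicle 1, vehicle 2, vehicle 3, chloroquine 1 or chloroquine 2, at -0.22 to -0.15 (adjusted p = 0.0597 to 0.176). PSMD2 fell with chloroquine, -0.40 ± 0.055, and in the combination, -0.15 ± 0.054, the second lost without vehicle 1, vehicle 2, vehicle 3 or combination 2, at -0.15 to -0.13 (adjusted p = 0.0556 to 0.104).

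The lid deubiquitinates substrates and holds the particle together. Of its 8 subunits, 6 fell in the combination, 5 in 5-FU and all 8 in chloroquine. The shares of all tested genes that fell were 27.2%, 29.5% and 19.1% in the same order. PSMD14, the deubiquitinase, had 147, 149 and 146 CPM in combination libraries, 132, 149.8 and 145 in 5-FU, 114, 115 and 120.0 in chloroquine and 179.9, 177, 181 and 177 in vehicle libraries. Its chloroquine libraries were the lowest and its vehicle libraries the highest, without overlap with the other groups. PSMD14 changed by -0.28 ± 0.048 (adjusted p = 0.000187) in the combination, -0.33 ± 0.048 (adjusted p = 3.3e-05) in 5-FU and -0.62 ± 0.048 (adjusted p = 5.4e-07) in chloroquine. PSMD12, a scaffold subunit of the lid, was the only one to rise in the combination. It had 254, 260.0 and 249 CPM in combination libraries, 168, 214 and 195 in 5-FU, 170.3, 170.4 and 173 in chloroquine and 212, 201, 202 and 206 in vehicle libraries. The combination libraries lay above all others. PSMD12 changed by 0.31 ± 0.063 (adjusted p = 0.000719) in the combination, -0.093 ± 0.064 (adjusted p = 0.224) in 5-FU and -0.26 ± 0.064 (adjusted p = 0.00519) in chloroquine. The last was -0.24 in the 8 libraries, where chloroquine has 1 library. Its call was lost with library size alone, at -0.16 (adjusted p = 0.0646). Against 5-FU the combination was higher by 0.40 ± 0.068 (adjusted p = 0.000326).

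PSMD3 went the other way between the 2 groups with 5-FU. It had 175, 175 and 177 CPM in combination libraries, 220.0, 188 and 201 in 5-FU, 161, 162 and 148 in chloroquine and 208, 204, 210.2 and 209.8 in vehicle libraries. The 5-FU libraries overlapped vehicle, and the combination libraries lay below both. PSMD3 gave -0.24 ± 0.053 (adjusted p = 0.00132) in the combination, -0.037 ± 0.053 (adjusted p = 0.577) in 5-FU and -0.41 ± 0.054 (adjusted p = 4.62e-05) in chloroquine, and the combination was -0.21 ± 0.057 (adjusted p = 0.00981) against 5-FU. With library size alone the 5-FU value turned to 0.15 (adjusted p = 0.0193) and that of the combination was -0.10 (adjusted p = 0.136).
PSMD6 had 278, 281 and 272 CPM in combination libraries, 235, 265 and 246 in 5-FU, 214, 219 and 222 in chloroquine and 306, 305, 299 and 307 in vehicle libraries. Every treated library was below vehicle, and the combination was nearest to it. PSMD6 gave -0.14 ± 0.044 (adjusted p = 0.0174) in the combination, -0.29 ± 0.044 (adjusted p = 5.16e-05) in 5-FU and -0.48 ± 0.045 (adjusted p = 2.43e-06) in chloroquine. The first was 0.013 (adjusted p = 0.842) with library size alone and -0.14 (adjusted p = 0.0597) in the 8 libraries, and without combination replicate 3 it was -0.13 (adjusted p = 0.0563). The combination call of PSMD6 was also lost with no filter on low counts, at -0.13 (adjusted p = 0.152). With the replicate numbers as a block over all libraries it was -0.13 (adjusted p = 0.0521). The remaining lid subunits PSMD7, PSMD8, PSMD11 and PSMD13 fell by 0.22 to 0.48 with chloroquine.

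Of the chaperones that assemble the base, 2 were tested. PSMD10, also known as gankyrin, an oncoprotein that promotes the breakdown of RB and p53, had 240.4, 249 and 249 CPM in combination libraries, 178, 199 and 195 in 5-FU, 134, 132 and 147 in chloroquine and 206, 189, 191 and 176 in vehicle libraries. The combination libraries lay above all others and the chloroquine libraries below all others. PSMD10 changed by 0.37 ± 0.059 (adjusted p = 9.43e-05) in the combination, 0.0043 ± 0.060 (adjusted p = 0.957) in 5-FU and -0.47 ± 0.061 (adjusted p = 4.04e-05) in chloroquine. PSMD9 gave 0.20 ± 0.077, 0.14 ± 0.078 and -0.30 ± 0.080 in the same order, the first and the last called. The first was 0.22 (adjusted p = 0.0629) in the 8 libraries, 0.19 (adjusted p = 0.0708) with the replicate numbers as a block over all libraries and 0.19 (adjusted p = 0.0531) by the Wald test of DESeq2. It was also lost on leaving out any of 9 of the 13 libraries, and without combination replicate 3 it was 0.12 (adjusted p = 0.236). The last was -0.26 (adjusted p = 0.158) in the 8 libraries and -0.20 (adjusted p = 0.0509) with library size alone. Of the exonic bases of PSMD9, 19.9% are shared with other genes on the same strand. PSMD5 had 0 to 10 counts in every library and was not tested.

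All 4 core chaperones, PSMG1 to PSMG4, were lower in the combination than in vehicle, beside 27.2% of all tested genes. PSMG2 had 23.4, 21 and 22.7 CPM in combination libraries, 16.7, 17.7 and 17.1 in 5-FU, 23.9, 21.8 and 25.3 in chloroquine and 34.1, 27.2, 29.1 and 25.1 in vehicle libraries. Its 5-FU libraries lay below every other library. PSMG2 changed by -0.37 ± 0.090 (adjusted p = 0.00295) in the combination, -0.75 ± 0.092 (adjusted p = 6.74e-06) in 5-FU and -0.29 ± 0.090 (adjusted p = 0.0193) in chloroquine, and the combination was above 5-FU by 0.38 ± 0.10 (adjusted p = 0.00668). The chloroquine value was -0.25 in the 8 libraries, where chloroquine has 1 library. Its call was lost with library size alone, at -0.19 (adjusted p = 0.0896). It was also lost without vehicle 1, chloroquine 1 or chloroquine 2, at -0.30 to -0.20 (adjusted p = 0.0503 to 0.0986). PSMG1, which acts as a pair with PSMG2, had 123, 125 and 124 CPM in combination libraries, 103, 124 and 118 in 5-FU, 104, 107 and 114 in chloroquine and 151, 143, 143 and 141 in vehicle libraries. All treated libraries of PSMG1 lay below vehicle. PSMG1 gave -0.22 ± 0.060 (adjusted p = 0.00585) in the combination, -0.33 ± 0.060 (adjusted p = 0.000245) in 5-FU and -0.42 ± 0.060 (adjusted p = 9.88e-05) in chloroquine, and with library size alone the first was -0.073 (adjusted p = 0.329) and the second -0.14 (adjusted p = 0.0597).

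The other chaperone pair is PSMG3 and PSMG4. PSMG4 had 13.2, 14.7 and 15.2 CPM in combination libraries, 16, 13.5 and 14.8 in 5-FU, 19.3, 20.9 and 19 in chloroquine and 19.6, 20.7, 20.6 and 18 in vehicle libraries. Both groups with 5-FU lay below the vehicle libraries, and the chloroquine libraries overlapped them. PSMG4 gave -0.46 ± 0.078 (adjusted p = 0.000158) in the combination, -0.41 ± 0.077 (adjusted p = 0.000325) in 5-FU and 0.0035 ± 0.076 (adjusted p = 0.977) in chloroquine. PSMG3 had 62, 63.6 and 68.3 CPM in combination libraries, 79.2, 66.8 and 70.9 in 5-FU, 61.6, 58.3 and 61.7 in chloroquine and 85, 76.8, 77.5 and 66.2 in vehicle libraries. Its chloroquine libraries lay below vehicle, and the other groups overlapped. PSMG3 gave -0.24 ± 0.079 (adjusted p = 0.0189) in the combination, -0.079 ± 0.079 (adjusted p = 0.406) in 5-FU and -0.34 ± 0.080 (adjusted p = 0.00414) in chloroquine. The first was -0.090 (adjusted p = 0.321) with library size alone and was lost without vehicle 1, combination 1 or combination 2, at -0.23 to -0.18 (adjusted p = 0.0551 to 0.0752).

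The alternative activators open the core without ubiquitin. PSME1 and PSME2 form an interferon-inducible ring together, yet they moved apart. PSME2 had 13.5, 11.4 and 12.6 CPM in combination libraries, 14.1, 15.4 and 15.9 in 5-FU, 11, 11.7 and 9.83 in chloroquine and 11.7, 10.3, 11 and 9.54 in vehicle libraries. The 5-FU libraries lay above all others. PSME2 rose by 0.51 ± 0.087 (adjusted p = 0.000144) in 5-FU and gave 0.24 ± 0.089 (adjusted p = 0.0357) in the combination and 0.032 ± 0.091 (adjusted p = 0.812) in chloroquine. The rise in the combination was lost in the 8 libraries, at 0.25 (adjusted p = 0.0664), by the Wald test of DESeq2, at 0.23 (adjusted p = 0.0765), and without vehicle 2, vehicle 4, combination 1 or combination 3, at 0.17 to 0.22 (adjusted p = 0.0785 to 0.175). That rise was also lost with no filter on low counts, at 0.24 (adjusted p = 0.0678). With the replicate numbers as a block over all libraries it was 0.19 (adjusted p = 0.135). Against 5-FU the combination gave -0.28 ± 0.091 (adjusted p = 0.0265). That difference was -0.21 (adjusted p = 0.175) in the 8 libraries, -0.29 (adjusted p = 0.0581) with the replicate numbers as a block in those 2 groups, and not called without 5-FU 2, 5-FU 3, combination 2 or combination 3, at -0.29 to -0.22 (adjusted p = 0.0536 to 0.117). Rows named as pseudogenes of PSME2 held 37.7% of the joint counts, and with them added the 5-FU value was 0.48, the combination value 0.31 and the difference between them -0.17 (adjusted p = 0.0882). PSME1 had 22.3, 20.6 and 22.2 CPM in combination libraries, 19.3, 23.3 and 21 in 5-FU, 24.2, 24.6 and 24.5 in chloroquine and 28.5, 27.5, 28 and 32.8 in vehicle libraries. Its treated libraries lay below all vehicle libraries. PSME1 gave -0.43 ± 0.075 (adjusted p = 0.00021) in the combination, -0.46 ± 0.075 (adjusted p = 9.31e-05) in 5-FU and -0.26 ± 0.074 (adjusted p = 0.0133) in chloroquine. The last was -0.19 in the 8 libraries, where chloroquine has 1 library. Its call was lost with library size alone, at -0.16 (adjusted p = 0.114). With the replicate numbers as a block over all libraries it was also lost, at -0.20 (adjusted p = 0.0596).

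PSME3, a nuclear activator, had 268, 260.5 and 259 CPM in combination libraries, 265, 267 and 277 in 5-FU, 272, 277 and 259 in chloroquine and 351, 345, 348 and 347 in vehicle libraries. The vehicle libraries lay above all treated libraries, which overlapped each other. PSME3 gave -0.41 ± 0.039 (adjusted p = 7.2e-07) in the combination, -0.37 ± 0.039 (adjusted p = 1.6e-06) in 5-FU and -0.37 ± 0.039 (adjusted p = 6.49e-06) in chloroquine. PSME4, a nuclear activator linked to histone breakdown, had 114, 109 and 99.6 CPM in combination libraries, 92.4, 101 and 104 in 5-FU, 122, 123 and 119 in chloroquine and 132, 150.3, 138 and 145 in vehicle libraries. Its treated libraries all lay below vehicle. PSME4 gave -0.39 ± 0.061 (adjusted p = 7.67e-05) in the combination, -0.51 ± 0.061 (adjusted p = 5.17e-06) in 5-FU and -0.22 ± 0.061 (adjusted p = 0.0117) in chloroquine, the last being -0.12 (adjusted p = 0.151) with library size alone and -0.23 (adjusted p = 0.121) in the 8 libraries. PSMF1, a regulator that can inhibit the core, had 149, 146 and 155 CPM in combination libraries, 143, 132 and 136 in 5-FU, 162, 172 and 161 in chloroquine and 167, 156, 165 and 170.4 in vehicle libraries. Chloroquine and vehicle overlapped, and both groups with 5-FU were lower. PSMF1 gave -0.13 ± 0.049 (adjusted p = 0.0317) in the combination, -0.26 ± 0.049 (adjusted p = 0.000305) in 5-FU and 0.0067 ± 0.048 (adjusted p = 0.931) in chloroquine. The combination call for PSMF1 was lost with library size alone, at 0.016 (adjusted p = 0.811), and with no filter, at -0.13 (adjusted p = 0.162). With the replicate numbers as a block over all libraries it was -0.11 (adjusted p = 0.11). The call was also lost in the 8 libraries, at -0.094. It was lost without vehicle 1, vehicle 3, vehicle 4, combination 1 or combination 2, at -0.13 to -0.11 (adjusted p = 0.0625 to 0.107).

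Adding chloroquine to 5-FU did not lower the family as chloroquine did alone. Against 5-FU, 12 members were higher in the combination and 2 lower (PSMD3 and PSME2), beside 20.2% and 18.3% of all tested genes, with a member median of 0.091. Residuals of same-numbered libraries moved together in these 2 groups, and with the number as a replicate block there, 6 members were higher and 1 lower. The share of all tested genes called with that block was not taken, so these counts stand without one. Against chloroquine, 25 members were higher and 4 lower in the combination (PSMD1, PSME4, PSMF1 and PSMG4), beside 24.8% and 25.7% of all tested genes. The core rings gave 11 of 14 higher and none lower, and the activators none higher and 1 lower of 4. In the 8 libraries, 9 of the 14 calls against 5-FU were kept (lost were PSMA6, PSMC2, PSMD1, PSMD13 and PSME2) and 19 of the 29 against chloroquine (lost were PSMA3, PSMB1, PSMB2, PSMB3, PSMC5, PSMD1, PSMD7, PSME4, PSMF1 and PSMG1). The 2 comparisons share the combination libraries. In both, PSMA2, PSMA6, PSMB2, PSMB7, PSMC2, PSMD6, PSMD10 and PSMD12 were higher, 8 of 43 members beside 7.58% of all tested genes. With the block, PSMA2, PSMB7, PSMD10 and PSMD12 were still called higher than in 5-FU, and PSMA6, PSMB2, PSMC2 and PSMD6 were not. The call of PSMA2 over 5-FU was lost without 5-FU 1, combination 1 or combination 3, at 0.25 to 0.32 (adjusted p = 0.0768 to 0.125). It was also lost with only the groups compared. Without the block, no member was lower in both, beside 8.03%.

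The interaction compares the effect of chloroquine with 5-FU present and without it. It was above 0 for 35 of 43 members and below 0 for none by the test, where 20.6% and 19.3% of all tested genes were called, and the member median was 0.47. All 14 core ring subunits, 14 of 17 of the base and lid, 4 of 6 assembly chaperones and 3 of 4 activators were called. In the core rings the call of PSMB4 was lost on leaving out any of 9 of the 13 libraries, PSMB5 any of 8 and PSMB3 any of 6. Outside them PSME1 lost its call without any of 10, PSMD9 without any of 4, and PSMD4 and PSMD8 each without any of 3. The 4 with the smallest adjusted p were PSMD6 at 0.64 ± 0.065 (adjusted p = 6.06e-06), PSMD14 at 0.68 ± 0.070 (adjusted p = 6.87e-06), PSMD10 at 0.83 ± 0.088 (adjusted p = 8e-06) and PSMA5 at 0.66 ± 0.073 (adjusted p = 1.21e-05). Members without a call were PSMB10, PSMC1, PSMC4, PSMD3, PSME2, PSMF1, PSMG3 and PSMG4. The sum of the 2 single-drug log2 fold changes had a median of -0.55 over the 43 members, and the combination had -0.14. In 39 of 43 the combination was above that sum, beside 49.8% of all tested genes. Library size alone shifted the interaction of all genes by -0.14 and kept 25 of the 35 calls, and the 8 libraries kept 26, PSMB3, PSMB4, PSMD2, PSMD4, PSMD8, PSMD9, PSMD11, PSME1 and PSME4 being lost.

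**Figure D4:**
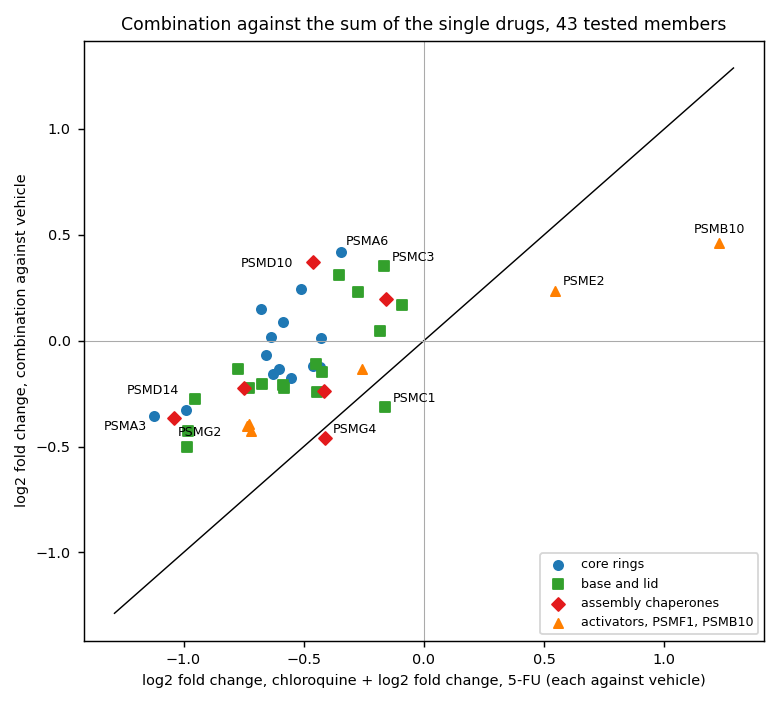
Log2 fold change in the combination (y axis) against the sum of the log2 fold changes of 5-FU and chloroquine (x axis), each against vehicle, for the 43 tested members by role; the line marks equality. The points of 39 members lie above the line, and PSMB10, PSME2, PSMC1 and PSMG4 lie below it.

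Of 11 proteasome components outside the symbol rule, 2 rose and 3 fell in the combination, none rose and 8 fell in 5-FU, and none rose and 7 fell in chloroquine. The shares of all tested genes were 28.1% higher and 27.2% lower in the combination, 30.8% and 29.5% in 5-FU, and 20.3% and 19.1% in chloroquine, with medians of 0.0057, 0.010 and 0.023 on the log2 scale. The medians of the 11 were -0.093, -0.19 and -0.19 in the same order. The interaction was called above 0 for 8 and below 0 for none, beside 20.6% and 19.3% of all tested genes. POMP, the maturation factor of the core, gave 0.29 ± 0.079 (adjusted p = 0.00546) in the combination, -0.21 ± 0.080 (adjusted p = 0.0374) in 5-FU and -0.22 ± 0.080 (adjusted p = 0.0384) in chloroquine. PAAF1, a factor that binds base ATPases, rose by 0.45 ± 0.063 (adjusted p = 2.58e-05) in the combination. ECPAS, a proteasome adaptor, fell by 0.73 in the combination and 0.71 in 5-FU, and the ligase UBE3C by 0.55 and 0.72.

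Of 7 genes of transcriptional control, 1 rose and 2 fell in the combination, beside 28.1% and 27.2% of all tested genes. In 5-FU none rose and 3 fell, beside 30.8% and 29.5%, and in chloroquine none rose and another set of 3 fell, beside 20.3% and 19.1%. Their medians were -0.050, -0.0024 and -0.11 in the same order. NFE2L1, the activator of proteasome genes, gave -0.23 ± 0.046 (adjusted p = 0.000655) in the combination, -0.0024 ± 0.046 (adjusted p = 0.969) in 5-FU and -0.11 ± 0.046 (adjusted p = 0.0856) in chloroquine. Its activity is set by processing of the protein, which was not measured. NGLY1, the enzyme that removes its sugars, rose by 0.23 ± 0.057 (adjusted p = 0.0036) in the combination and fell in chloroquine, at -0.33 ± 0.059 (adjusted p = 0.000556). DDI2, the protease that cleaves it, gave -0.35 ± 0.043 (adjusted p = 8.05e-06) in 5-FU. NFYA, a subunit of the factor that binds CCAAT, fell in the combination, at -0.52 ± 0.082 (adjusted p = 7.9e-05), and in chloroquine, at -0.78 ± 0.083 (adjusted p = 7.71e-06). The other subunits differed from it. NFYB had 47.8 ± 3.28 CPM in the combination, 35.2 ± 4.49 in 5-FU, 50.5 ± 1.82 in chloroquine and 45.5 ± 2.02 in vehicle. NFYC had 61.8 ± 3.17, 68.7 ± 4.93, 47.4 ± 4.92 and 65.4 ± 3.35 CPM in the same order.

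Of 14 genes for ubiquitin and the delivery of substrates, 2 rose and 8 fell in the combination, beside 28.1% and 27.2% of all tested genes. In 5-FU 1 rose and 10 fell, beside 30.8% and 29.5%, and in chloroquine 1 rose and 6 fell, beside 20.3% and 19.1%. Their medians were -0.40, -0.41 and -0.12. VCP, the segregase that extracts ubiquitinated proteins, gave -0.90 ± 0.058 (adjusted p = 1.51e-08) in the combination, -0.82 ± 0.058 (adjusted p = 2.63e-08) in 5-FU and -0.43 ± 0.057 (adjusted p = 4.71e-05) in chloroquine. Its cofactor UFD1 rose by 0.53 ± 0.049 (adjusted p = 4.71e-07) in the combination and 0.72 ± 0.049 (adjusted p = 1.9e-08) in 5-FU. UBA1, the main ubiquitin-activating enzyme, changed by -0.91 ± 0.071 (adjusted p = 9.32e-08) in the combination, -0.49 ± 0.070 (adjusted p = 3.02e-05) in 5-FU and -0.34 ± 0.069 (adjusted p = 0.0015) in chloroquine.

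Genes of MHC class I presentation act on the peptides that proteasomes make. Of 15, 7 rose and 3 fell in the combination, beside 28.1% and 27.2% of all tested genes. In 5-FU 6 rose and 3 fell, beside 30.8% and 29.5%, and in chloroquine 7 rose and none fell, beside 20.3% and 19.1%. Their medians were 0.35, 0.18 and 0.15. The interaction was called above 0 for 1 and below 0 for 3, beside 20.6% and 19.3%. B2M, the light chain of class I, rose by 0.64 ± 0.053 (adjusted p = 1.74e-07) in the combination, 0.18 ± 0.054 (adjusted p = 0.0103) in 5-FU and 0.31 ± 0.053 (adjusted p = 0.000379) in chloroquine. ERAP2, which trims peptides, rose by 1.80, 0.95 and 1.00 in the same order, and TAP2, a peptide transporter subunit, changed by -1.30 ± 0.24 (adjusted p = 0.000364) in the combination and -1.25 ± 0.24 (adjusted p = 0.00041) in 5-FU.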

How the data were processed

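Total RNA of 13 libraries in 4 groups was sequenced with a directional kit, per the labels' protocols. The authors deposited a table of raw counts per gene with human symbols. The submitters' processing notes name DESeq and the mouse build GRCm38, without versions, so coordinates come only from RefSeq on GRCh38.p14. The aligner, the counter, the annotation and the use of strand were not given in the sources used here.

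In R 4.3.3, edgeR 4.0.16 was used to filter low counts (filterByExpr, default settings) and to scale by TMM. A single fit by quasi-likelihood took in all 13 libraries and 19514 genes with the 4 group means as terms, with Benjamini-Hochberg adjustment over all of them and a threshold of 0.05. A ± gives the SE for log2 fold changes and the SD over libraries for levels in CPM, which were computed here from the deposited counts and are not scaled by gene length, so levels are compared between groups and not between genes. The 6 comparisons were each treatment against vehicle, the combination against each drug, and the interaction, which is the combination minus 5-FU, less chloroquine minus vehicle. The scripts were tested on simulated counts.

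Members, roles and gene lists were chosen with earlier results of these data known. Values in every library are given for the called members with the 3 highest and 3 lowest log2 fold changes in each comparison of 2 groups, the 4 called in the interaction with the smallest adjusted p, and PSMB5 to PSMB10, PSME1 to PSME4, PSMF1 and PSMG1 to PSMG4 whatever their result. Libraries with at least 50 counts of COL1A2 were set apart, and in the other 8 chloroquine has 1 library. Alternatives were RLE size factors, library size only, no filter, the Wald test of DESeq2 1.42.0, only the groups compared, a term for the 5 libraries, the 8 alone, the replicate number as a block, and leaving out each library. Adding pseudogene rows to their member, and the same block restricted to the 5-FU and combination libraries, were chosen after the data were seen. Same-numbered libraries of 5-FU and the combination had residuals that correlated at 0.341, 0.743 and 0.339, and no other pair of groups had all values above 0.1, so numbers were treated as pairs in those groups. Replicate 2 of both is among the 5 libraries set apart, and the part of this in the correlation of 0.743 was not tested. Libraries of a group differed by more than sampling noise in every pair.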

Additional observations from a re-analysis of the deposited data

Results flagged for a closer look

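The effect of chloroquine differed with and without 5-FU for 17 of the members given in every library, by the test of the interaction (edgeR, adjusted p under 0.05). The difference on the log2 scale was 0.77 for PSMA3, 0.66 for PSMA5 and 0.76 for PSMA6 in the alpha ring. It was 0.34 for PSMB5, 0.76 for PSMB6 and 0.67 for PSMB7 among the active beta subunits. In the base and lid it was 0.52 for PSMC3, 0.48 for PSMD1, 0.64 for PSMD6, 0.66 for PSMD12 and 0.68 for PSMD14. Among assembly chaperones it was 0.83 for PSMD10, 0.53 for PSMG1 and 0.67 for PSMG2, and among activators 0.29 for PSME1, 0.33 for PSME3 and 0.34 for PSME4. All 17 differences were above 0. In the 8 libraries with few COL1A2 counts PSME1 and PSME4 were no longer called, at 0.33 (adjusted p = 0.0961) and 0.35 (adjusted p = 0.0582). The call of PSMB5 was lost on leaving out any of 8 of the 13 libraries and that of PSME1 on leaving out any of 10. Over all tested genes, 20.6% were called above 0 and 19.3% below.

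No vehicle library stood apart from the other 3, by Dixon's criterion, in any of the 23 tested members given in every library or in the summed level; groups of 3 were not tested.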

How the results depend on the processing

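The member medians in chloroquine and in the interaction kept their direction under every alternative run. Library size only gave medians of -0.25 with chloroquine, 0.0084 with 5-FU (12 members higher, 11 lower) and 0.013 in the combination against vehicle (13 higher, 10 lower). It gave 0.33 in the interaction (1 lower), and 1 member lower in the combination against chloroquine. Over all 19514 tested genes that setting called 8291 higher and 3669 lower with 5-FU, and 7422 and 3659 in the combination against vehicle. It called 5063 lower in the interaction and 4379 lower in the combination against chloroquine. Among members given in every library, library size only reversed PSMD3 in 5-FU to 0.15, PSMF1 in the combination to 0.016 and PSMD6 in the combination to 0.013. Over all tested members, 2 of the 24 called in 5-FU and 3 of the 31 called in the combination against vehicle changed sign. The cause was not tested beyond the shift of all genes. A term for the 5 libraries gave 5 members higher in 5-FU, and the 8 libraries alone left 1 lower in the combination against chloroquine, as did no filter. In the combination against 5-FU, no filter left 0 lower, only the groups compared left 5 higher, and added pseudogene rows left 1 lower.

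Leaving out each library gave ranges as follows. With chloroquine 35 to 38 members were lower and 0 higher, with medians of -0.38 to -0.32. With 5-FU 3 to 5 were higher and 21 to 24 lower (-0.21 to -0.16), and in the combination against vehicle 5 to 9 and 17 to 23 (-0.17 to -0.13). In the combination against 5-FU it gave 8 to 12 higher and 1 to 4 lower, with a median of 0.032 without combination replicate 3 and 0.11 at most. Against chloroquine it gave 21 to 26 higher and 1 to 4 lower (0.19 to 0.25), and in the interaction 28 to 36 higher and 0 to 1 lower (0.43 to 0.51).

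The replicate number as a block over all libraries left 37 members lower with chloroquine and 34 above 0 in the interaction. In 5-FU and the combination alone the block left 6 higher and 1 lower, and the share of all tested genes was not taken there. Over the members given in every library, 3036 values were recomputed. Of these, 2860 stayed on the same side of the threshold, 29 passed it, 144 fell short of it and 3 reversed. Direction was compared only for values called in the main fit or in the alternative. Values called in neither count among the 2860 whatever their sign. Depth limits PSMB8, PSMB9, PSMB11, PSMA8 and PSMD5, with at most 10 counts per library.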
